A study of Rattus norvegicus with 12 samples.

Results

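The effect of lowering Alivec in resting cells was read from the 3 AlivecGap arrays and the 3 NCGap arrays that received PBS, 6 of the 12 arrays of the series. Rat vascular smooth muscle cells (RVSMCs) came from the thoracic aorta of male Sprague-Dawley rats and were studied after a few passages in culture. They carried, at 100 nM for 48 h, either AlivecGap, an antisense oligonucleotide with locked nucleic acid ends that directs RNase H to the long non-coding RNA Alivec, or NCGap, a GapmeR with no target. PBS was then added for 3 h, as the vehicle of the other 6 arrays, which received 100 nM Angiotensin II (AngII) for 3 h with the same GapmeRs. All groups were transfected and serum depleted, no untransfected group was analysed here, and a single GapmeR sequence stood for the knockdown. RNA was hybridised to Clariom S rat arrays, and of 23188 probe sets 14796 were tested, those whose log2 signal reached 6 on 3 or more of the 12 arrays. Of these, 10191 carried a gene symbol, for 10184 genes, and 4605 carried none. No probe set is named Alivec, so the loss of the target itself was not measured on these arrays, and Sox9 has no named probe set either.

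Vascular smooth muscle cells hold the tone of the artery through actin, myosin and calcium entry, and in culture or disease they can turn to a matrix-producing, inflammatory or cartilage-like state. Alivec lies beside Acan, the gene of the cartilage proteoglycan aggrecan, and was described as a transcript that AngII induces. The resting cells therefore tell which genes differ between the GapmeRs before the hormone is present. Cells also carry sensors of foreign nucleic acid and of interferon, whose target genes share a short promoter element, and these genes are part of what was read here.

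The 6 PBS arrays resembled one another closely. Their median log2 signals were 6.72 to 6.74 with AlivecGap and 6.73 to 6.76 with NCGap. Pearson correlations over the tested probe sets were 0.994 among AlivecGap arrays, 0.988 to 0.993 among NCGap arrays and 0.989 to 0.993 between the groups. The median SD within a group was 0.09 with AlivecGap and 0.12 with NCGap. The array weights of limma were 1.06 to 1.19 for the AlivecGap arrays, and 2.29, 0.61 and 0.45 for NCGap arrays 1, 2 and 3. AlivecGap array 3 stood apart from AlivecGap arrays 1 and 2 in genes of the interferon response, whose values are given with and without it. The labels number the replicates as biological, and the methods call them independent. Each p value speaks only for the spread of the arrays in its fit, all 12 unless stated otherwise. Smooth muscle identity was clear from its markers: all 8 had a group mean of at least 6 in both groups, and Tagln (transgelin) reached 13.18, 13.20 and 13.01 with AlivecGap, against 13.11, 13.16 and 13.15 with NCGap. Ptprc, Csf1r, Adgre1 and Itgam of leukocytes and Pecam1, Cdh5, Kdr and Vwf of endothelium stayed under 6 on all 12 arrays.

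Most transcripts differed little. The median log2 difference, AlivecGap minus NCGap, was 0.00 over all tested probe sets with an SD of 0.14, and 93.7% lay within a fold change of 1.2 either way. Only 4 probe sets differed by 1 log2 unit or more. At a Benjamini-Hochberg adjusted p under 0.05 in limma over the 12 arrays, 30 probe sets were lower (0.203% of those tested) and 29 were higher (0.196%). In each direction 22 of these had a name. At the looser cutoffs that the study used (1.2-fold or more, unadjusted p under 0.05), 398 were lower (2.69%) and 331 were higher (2.24%). In none of the 59 probe sets at the adjusted threshold did the AlivecGap and NCGap arrays overlap, whereas of all tested probe sets 7.3% were without overlap in the lower and 6.91% in the higher direction.

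**Figure D1:**
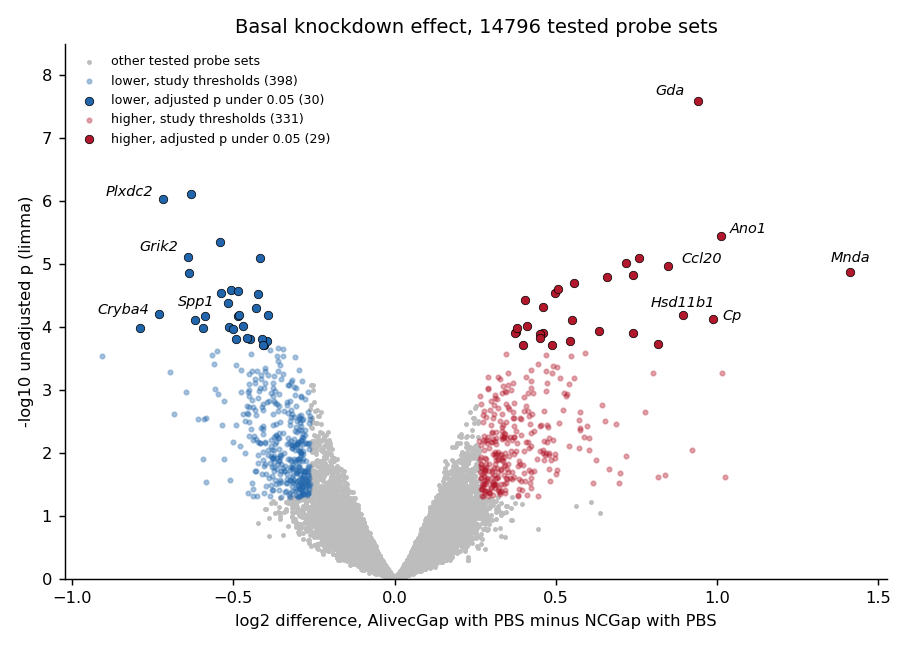
Each point is 1 of the 14796 tested probe sets, with its log2 difference (AlivecGap with PBS minus NCGap with PBS) on the horizontal axis and -log10 of its unadjusted limma p on the vertical axis. Ringed points mark the 30 lower (blue) and 29 higher (red) probe sets at an adjusted p under 0.05, and paler points the further ones at the study thresholds; the largest rise among them was 1.41 (Mnda).

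These calls drew on the spread of all 12 arrays. When only the 6 PBS arrays entered limma, 0 probe sets were lower (0%) and 1 was higher (0.00676%) at an adjusted p under 0.05. The higher one was Gda, whose 6 PBS signals were all under 6, so only its signals with AngII brought it into the test. In the same fit 1273 probe sets (8.6%) had an unadjusted p under 0.05, all 59 among them. Their differences are the same in both fits by construction. Leaving out 1 PBS array at a time gave 5 lower and 11 higher calls without AlivecGap array 1, 6 and 6 without AlivecGap array 2, 2 and 2 without AlivecGap array 3, 2 and 1 without NCGap array 1, 9 and 5 without NCGap array 2, and 45 and 61 without NCGap array 3. The 59 probe sets kept the study thresholds in each of these fits. Their sign could not change, since their groups did not overlap.

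Among the lower genes with a name, several encode proteins of neurons or of cell contact. Plxdc2, a transmembrane receptor with a plexin domain, had log2 signals of 10.74, 10.87 and 10.70 with AlivecGap, against 11.47, 11.48 and 11.52 with NCGap. Every AlivecGap array lay below every NCGap array, a difference of -0.72 ± 0.08 (SE) or 1.64-fold lower (adjusted p = 0.00449). Grik2, a subunit of kainate glutamate receptors, read 8.56, 8.79 and 8.58 with AlivecGap, against 9.25, 9.23 and 9.37 with NCGap. It was 1.56-fold lower without overlap (-0.64 ± 0.09, adjusted p = 0.0148). Map2, which binds microtubules in dendrites, read 9.21, 9.20 and 9.09 with AlivecGap, against 9.78, 9.67 and 9.82 with NCGap, and was 1.51-fold lower (adjusted p = 0.0387). Ptprn, a membrane protein of dense-core secretory vesicles, lay at 6.24, 6.27 and 6.29 with AlivecGap, against 6.88, 6.90 and 6.94 with NCGap (1.56-fold lower, adjusted p = 0.0167). Cdh11, a cadherin of mesenchymal cells, was bright in both groups, at 11.47, 11.48 and 11.27 with AlivecGap, against 11.88, 11.90 and 11.89 with NCGap, and was 1.4-fold lower (adjusted p = 0.0316).

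A second set of lower genes acts in signaling and transcription. Spp1, which encodes osteopontin, a secreted phosphoprotein of bone and of injured arteries, read 11.19, 11.15 and 10.88 with AlivecGap, against 11.66, 11.57 and 11.54 with NCGap. The highest AlivecGap array was below the lowest NCGap array, and the gene was 1.43-fold lower (-0.52 ± 0.08, adjusted p = 0.0261). Smad3, the transcription factor that carries TGF-beta signals, read 9.18, 9.32 and 9.25 with AlivecGap, against 9.88, 9.60 and 9.73 with NCGap. It was 1.4-fold lower (-0.49 ± 0.08, adjusted p = 0.0316). Zfpm2, a cofactor of GATA factors in heart development, read 9.66, 9.52 and 9.69 with AlivecGap, against 10.07, 10.23 and 10.09 with NCGap (1.42-fold lower, adjusted p = 0.0207). Camta1, a calmodulin-binding transcription activator, read 8.82, 9.06 and 9.10 with AlivecGap, against 9.53, 9.53 and 9.46 with NCGap (1.43-fold lower, adjusted p = 0.0387). Dok6, a docking protein of receptor kinases, was 1.5-fold lower (adjusted p = 0.0316). Cacnb2, the beta subunit of the voltage-gated calcium channel, read 6.48, 6.28 and 6.47 with AlivecGap, against 6.87, 6.94 and 6.84 with NCGap (1.38-fold lower, adjusted p = 0.0387).

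The remaining lower genes were of smaller change or dimmer. Mpped2, a metallophosphoesterase, differed by -0.49 and Zmynd10, which assembles ciliary dynein, by -0.48. Cryba4, a lens crystallin, averaged under 6 with AlivecGap (5.93, 5.38 and 5.54), against 6.28, 6.45 and 6.33 with NCGap. Its fall is a bound of at least 1.27-fold with 6 set in place of the lower mean. No AlivecGap array reached 6 for Cryba4, with PBS or AngII, so only its NCGap signals brought it into the test. Rtbdn also averaged under 6 with AlivecGap and was at least 1.18-fold lower. Pgm5, Gmds, Zfp385d, Pcdha4, Dusp16, Entpd1 and Cert1 differed by -0.39 to -0.46. They encode, in that order, a protein of adherens junctions, an enzyme of GDP-fucose synthesis, a zinc finger protein, a protocadherin, a phosphatase of MAP kinases, an ectonucleotidase and the ceramide transporter. Pcdha4 shares its last exons with the other genes of its cluster, so its value is uncertain as to the gene.

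The higher genes held the larger changes. Mnda, of the interferon-inducible HIN-200 family of nuclear proteins, had log2 signals of 6.87, 7.35 and 7.52 with AlivecGap, against 5.97, 5.35 and 6.18 with NCGap. The NCGap mean was under 6, so with 6 in its place the rise was at least 2.37-fold (measured difference 1.41 ± 0.20, adjusted p = 0.0167). Ano1, the calcium-activated chloride channel that depolarises smooth muscle, read 7.08, 6.76 and 6.91 with AlivecGap, against 5.67, 5.84 and 6.22 with NCGap, at least 1.89-fold higher by the same rule (adjusted p = 0.0131). Hsd11b1, which regenerates active glucocorticoid inside cells, read 8.23, 7.82 and 8.45 with AlivecGap, against 7.10, 7.22 and 7.49 with NCGap. The groups did not overlap and the gene was 1.86-fold higher (adjusted p = 0.0316). Flrt2, an adhesion protein with leucine-rich repeats, read 9.19, 9.26 and 9.57 with AlivecGap, against 8.65, 8.52 and 8.70 with NCGap (1.64-fold higher, adjusted p = 0.0155). Htr1b, a serotonin receptor that constricts vessels, read 7.42, 7.40 and 7.61 with AlivecGap, against 6.96, 6.81 and 6.69 with NCGap (1.58-fold higher, adjusted p = 0.0167).

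Gda, guanine deaminase of purine breakdown, had the smallest adjusted p of all, 0.000379, at 5.66, 5.78 and 5.70 with AlivecGap, against 4.78, 4.80 and 4.74 with NCGap. Both means lay under 6, so no fold is given. Vsnl1, a neuronal calcium sensor, read 9.18, 9.29 and 9.48 with AlivecGap, against 8.77, 8.75 and 8.76 with NCGap, and was 1.47-fold higher (adjusted p = 0.0198). Adh1c, an alcohol dehydrogenase, was 1.47-fold higher (adjusted p = 0.0341) and Ppp1r14c, an inhibitor of protein phosphatase, 1.55-fold higher (adjusted p = 0.0401). Further higher genes were Gpnmb, a glycoprotein of lysosomes and the cell surface (0.50), Dhrs9, a retinol dehydrogenase (0.46), Pfkp, a phosphofructokinase of glycolysis (0.41), Asb12, which has a SOCS box (0.40), Ptgis, the prostacyclin synthase (0.38), and Tes, a focal adhesion protein (0.37).

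**Figure D2:**
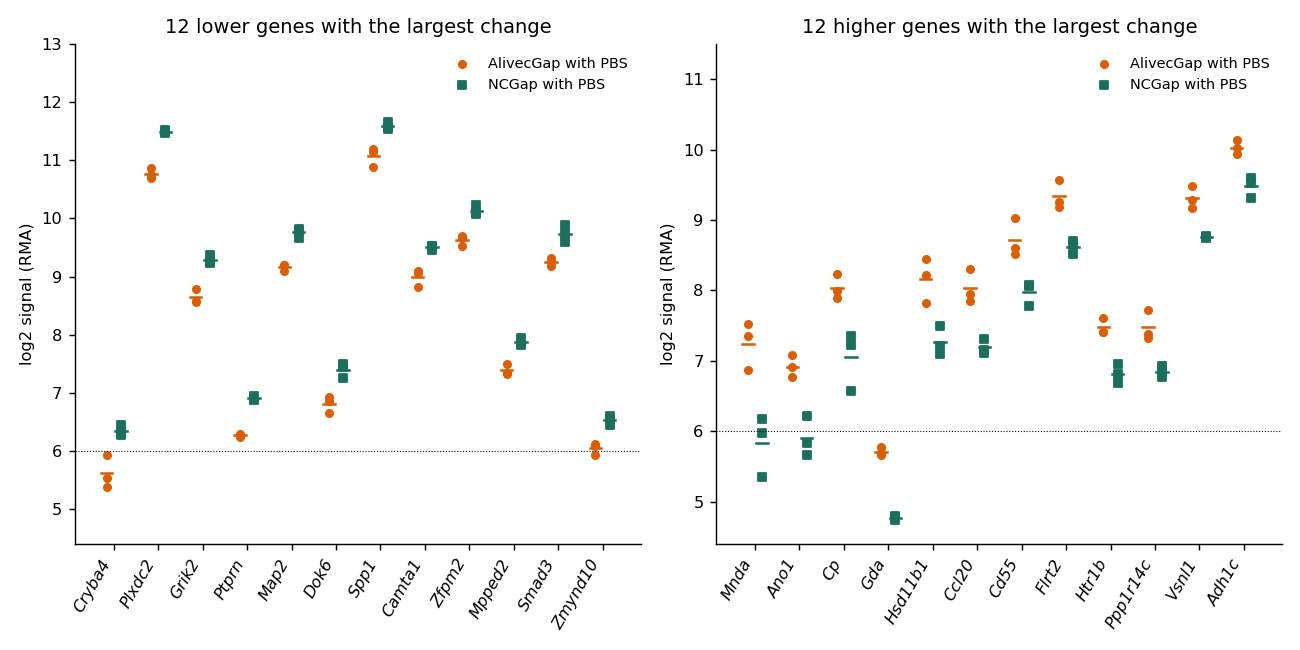
Log2 signal (vertical axis) on each PBS array for the 12 lower genes (left panel) and 12 higher genes (right panel) with the largest difference at an adjusted p under 0.05; circles are AlivecGap arrays, squares are NCGap arrays, short lines are group means and the dotted line is a log2 signal of 6. In each of the 24 genes the 3 AlivecGap arrays and the 3 NCGap arrays do not overlap, and both Gda groups lie under the dotted line.

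Many genes of the interferon response and nucleic acid sensing were higher. Of the list's 43 tested members, 18 (41.9%) were higher at the study thresholds and 0 were lower, against 2.24% higher and 2.69% lower of all tested probe sets. Mnda and Parp14 also passed the adjusted threshold. The median difference of the list was 0.23, against 0.00 over all, and 39 of 43 members had a difference above 0, against 51% of all. Parp14, an ADP-ribosyltransferase of the interferon response, read 7.07, 6.98 and 7.30 with AlivecGap, against 6.60, 6.62 and 6.77 with NCGap (1.37-fold higher, adjusted p = 0.0447). The other 16 higher members were Usp18, Oas1b, Dhx58, Ifi47, Ifi44, Irgm, Irf7, Gbp2, Ifih1, Gbp5, Lgals3bp, Bst2, Ifi27, Cxcl10, Tapbp and Ifitm3, with differences of 0.29 (Ifitm3) to 1.03 (Usp18) and adjusted p above 0.05. They include the RNA sensors Ifih1 and Dhx58, the transcription factor Irf7, the GTPases Irgm, Gbp2 and Gbp5 and the chemokine Cxcl10. Ifitm, Gbp and Oas genes have close copies in the genome, to whose transcripts their probes may also bind. The lowest member was Oas3, at -0.26 without passing the test.

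One array weighed heavily on that group. AlivecGap array 3 gave the highest signal of the 6 PBS arrays for all 18 higher members. The mean log2 signal over the 43 members was 7.95, 7.99 and 8.41 with AlivecGap, against 7.84, 7.72 and 7.89 with NCGap, so the groups did not overlap, but AlivecGap arrays 1 and 2 lay close to the NCGap arrays. Usp18, which removes the ISG15 tag, shows the pattern, with 6.42, 6.79 and 8.48 with AlivecGap, against 6.15, 6.02 and 6.45 with NCGap, where array 1 fell within the NCGap range. Irgm was more graded, at 6.85, 7.11 and 7.65 with AlivecGap, against 6.53, 6.68 and 6.64 with NCGap, and Gbp2 likewise, at 7.15, 7.45 and 7.80 with AlivecGap, against 6.88, 7.06 and 7.02 with NCGap. Neither of these 2 overlapped between the groups. Without AlivecGap array 3, 6 members were higher and the median was 0.14. Without NCGap array 2, 11 were higher and the median was 0.17. Without any of the other 4 arrays, 13 to 20 were higher. On the arrays with AngII, none of which enters the PBS difference, 22 of the 43 members passed the study thresholds in the higher direction and 0 in the lower, against 2.91% higher and 3.27% lower of all, and the median was 0.30, with list means of 8.05, 7.96 and 8.13 with AlivecGap, against 7.74, 7.66 and 7.86 with NCGap. There too the groups did not overlap.

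Promoter sequence was read for these genes because the element that interferon-activated factors bind, the interferon-stimulated response element, contains the letters TTTCNNTTTC, where N is any base. RefSeq promoters of the GRCr8 build, from 250 bases before to 50 bases after the gene start, were available for 37 of the 43 members. The motif, read on both strands, was in 14 of 16 higher members with a promoter in the table (87.5%) and in 11 of 21 members that were not called (52.4%). It was in 3.77% of all 27457 promoters, 1 a gene, in 2.93% of the 8487 promoters of tested genes, in 6.56% of 183 higher genes outside the list and in 3.94% of 203 lower genes. Mnda and Ifi47 held no match in this window, and Dhx58 and Usp18 were not in the table. The list holds interferon response genes, which share this element, so an excess over all promoters was given by the choice of the list. A match is a run of letters, and no binding was measured. A kappa-B motif, GGGANTTTCC, also read on both strands and able to share its TTTC with the first motif, was in 2 of 16 higher (12.5%) and 3 of 21 uncalled (14.3%) interferon members, in 1.51% of the 199 promoters of all higher genes, in 0.493% of those of lower genes and in 0.371% of all promoters. It was in 0 of 5 higher complement genes and 0 of 4 higher chemokine genes, too few to show a share of that size. The Parp14 promoter upstream of the gene start (chr11:78407884-78408133, plus strand) and 8 shorter stretches are written on the strand of the gene, with the match nearest the gene start in capitals, in whichever orientation it lies. Irgm and Gbp2 come from the rule for named genes, and the other 6 were picked after their values were seen to show both orientations. The stretches are Irgm at chr10:33742588-33742627 (minus strand), Gbp2 at chr2:234005681-234005720 (plus), Lgals3bp at chr10:104127874-104127913 (minus), Ifitm3 at chr1:205541778-205541817 (minus), Ifi44 at chr2:243303842-243303881 (minus), Oas1b at chr12:41395881-41395920 (minus), Ifi27 at chr6:128355213-128355252 (plus) and Irf7 at chr1:205800068-205800107 (minus).
Parp14: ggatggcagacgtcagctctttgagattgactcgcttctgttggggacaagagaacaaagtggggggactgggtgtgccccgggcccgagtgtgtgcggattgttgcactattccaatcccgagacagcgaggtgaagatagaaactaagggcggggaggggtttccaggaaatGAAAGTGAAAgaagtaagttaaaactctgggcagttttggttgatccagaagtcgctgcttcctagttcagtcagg
Irgm: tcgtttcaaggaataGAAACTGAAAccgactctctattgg
Gbp2: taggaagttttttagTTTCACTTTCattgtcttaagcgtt
Lgals3bp: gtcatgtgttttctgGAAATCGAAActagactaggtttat
Ifitm3: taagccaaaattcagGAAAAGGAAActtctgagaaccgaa
Ifi44: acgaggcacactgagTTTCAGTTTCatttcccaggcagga
Oas1b: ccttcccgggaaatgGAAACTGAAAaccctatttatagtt
Ifi27: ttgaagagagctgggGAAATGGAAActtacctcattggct
Irf7: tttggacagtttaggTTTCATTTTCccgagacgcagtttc
The motif began 76 bases before the gene start in Parp14, 34 in Irgm, 31 in Gbp2, 26 in Ifi44, 44 in Ifitm3, 50 in Lgals3bp, 53 in Oas1b, 69 in Irf7 and 84 in Ifi27. These 9 were chosen as stated, and the nearest match was taken in each, so their distances do not describe all higher members. In the other higher members with a match it began 20 (Tapbp) to 243 (Cxcl10) bases before the start, with Bst2 at 125.

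Complement and acute phase genes were higher as well. Of 17 tested members, 8 (47.1%) passed the study thresholds upward and 0 downward, against 2.24% and 2.69% of all tested probe sets. At the adjusted threshold 4 of them were higher, against 0.196% of all. The median difference was 0.18 (0.31 without AlivecGap array 2, 0.30 without NCGap array 2 and 0.27 without NCGap array 3). Ceruloplasmin (Cp), the copper-carrying ferroxidase, had 7.99, 7.89 and 8.23 with AlivecGap, against 7.22, 6.57 and 7.35 with NCGap, and was 1.98-fold higher (0.99 ± 0.17, adjusted p = 0.0341). Cd55, which dissolves complement convertases on the cell surface, read 8.52, 8.60 and 9.03 with AlivecGap, against 8.08, 7.78 and 8.06 with NCGap (1.67-fold higher, adjusted p = 0.0401). Lbp, which binds bacterial lipopolysaccharide, read 8.49, 8.43 and 8.68 with AlivecGap, against 8.01, 7.83 and 8.13 with NCGap (1.46-fold higher, adjusted p = 0.0459). C3, the central complement component, read 10.07, 9.85 and 10.01 with AlivecGap, against 9.49, 9.48 and 9.58 with NCGap (1.38-fold higher, adjusted p = 0.0291). In all 4 genes the lowest AlivecGap array was above the highest NCGap array. The further members Serping1 (0.60) and Masp1 (0.45), an inhibitor and a protease of the complement cascade, C1s (0.57), a protease of its classical arm, and Lcn2 (0.49), an iron-siderophore binder, were higher at the study thresholds only, and none of the 8 overlapped between the groups. Over all tested probe sets 6.91% were without overlap in the higher direction. AlivecGap array 3 had the highest signal for 7 of these 8 members. Without it 8 members were still higher, and leaving out any other PBS array gave 8 or 9. On the AngII arrays alone 7 of the 17 were higher and 0 lower, against 2.91% and 3.27% of all, with a median of 0.22. Hp, haptoglobin, had a difference of -0.10 with PBS and was among the 9 that were not called.

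**Figure D3:**
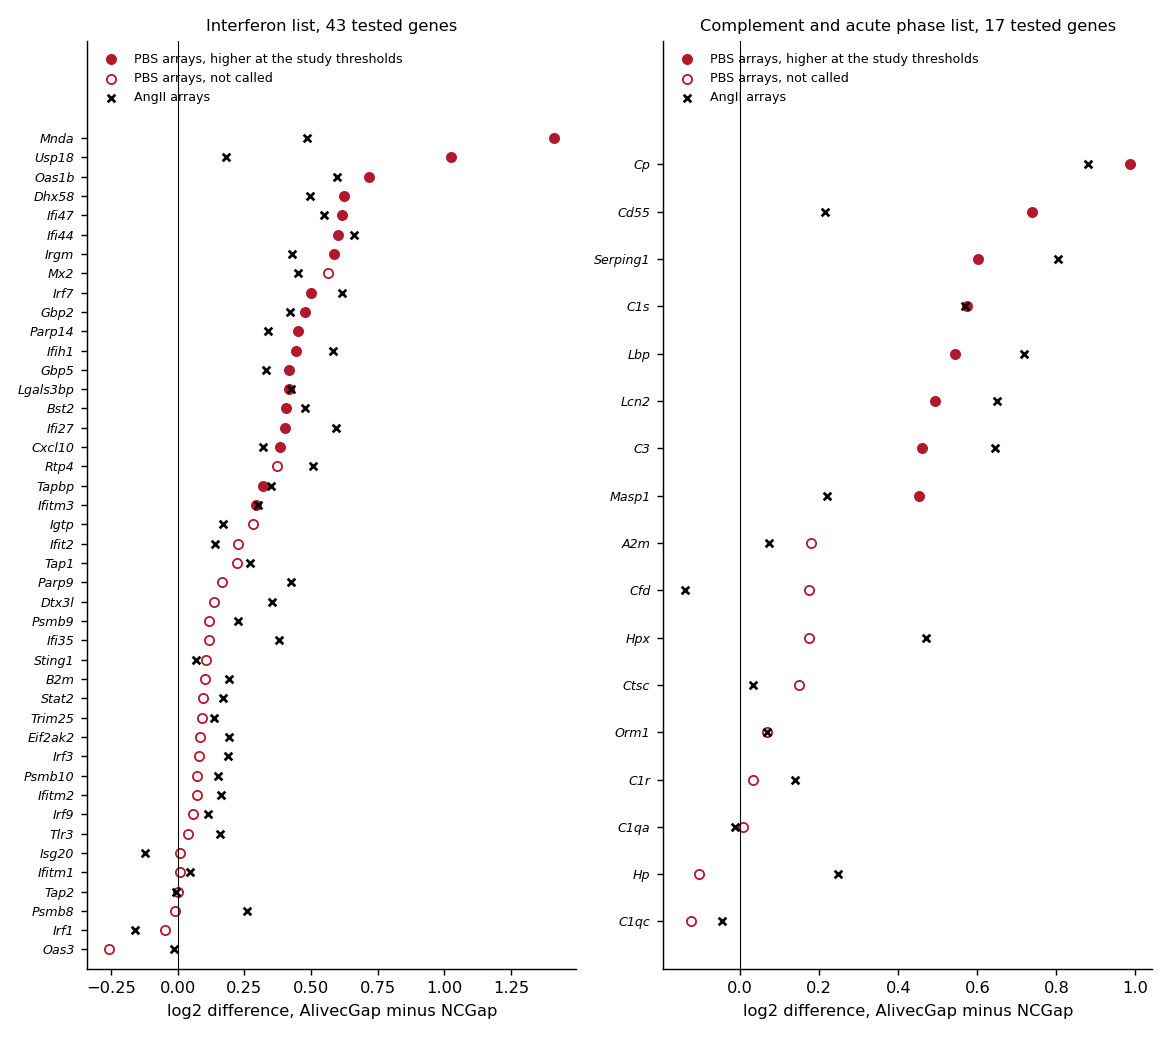
Log2 difference, AlivecGap minus NCGap (horizontal axis), of each tested member of the interferon list (left panel, 43 genes) and of the complement and acute phase list (right panel, 17 genes). Filled circles are members higher at the study thresholds on the PBS arrays (18 and 8), open circles are members not called, and crosses give the same difference on the AngII arrays; most of both kinds of mark lie right of 0.

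Some chemokines and adhesion molecules of inflamed vessels were higher at rest. Of 25 tested members of the chemokine, cytokine and NF-kappa-B list, 5 were higher (20%) and 0 lower, with a median of 0.13. Of all tested probe sets 2.24% were higher and 2.69% lower. Ccl20, which attracts lymphocytes and dendritic cells through Ccr6, read 7.95, 7.86 and 8.31 with AlivecGap, against 7.31, 7.11 and 7.16 with NCGap, and was 1.8-fold higher (adjusted p = 0.0157). Vcam1, the adhesion molecule for leukocytes, read 10.84, 10.97 and 11.00 with AlivecGap, against 10.48, 10.57 and 10.55 with NCGap (1.32-fold higher, adjusted p = 0.0251). Neither gene overlapped between the groups. The monocyte attractants Ccl2 and Ccl7 (0.35 each) and Icam1 (0.37) were higher at the study thresholds only. On the AngII arrays alone 2 of the 25 were higher and 1 lower, against 2.91% and 3.27% of all tested probe sets. The median there was 0.04, and Ccl2 and Ccl7 differed by -0.02 each. Of 5 tested leukocyte markers none was called in either direction. The summed linear signal of all 13 leukocyte markers on the array, tested or not, was 898 to 959 with AlivecGap and 924 to 951 with NCGap.

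Lists of growth and degradation shifted less, and their shares are to be read against 2.24% higher and 2.69% lower of all tested probe sets. Among 37 tested cell cycle and replication genes, 5 were higher (13.5%) and 0 lower, with 31 members above 0 and a median of 0.12 (0.18 without NCGap array 3). Rrm1, the large subunit of ribonucleotide reductase, was at 9.37, 9.33 and 9.41 with AlivecGap, against 8.94, 8.88 and 9.02 with NCGap (1.34-fold higher, adjusted p = 0.105), and Prc1, Kif20a, Ccnb2 and Mki67 of mitosis differed by 0.27 to 0.39. Of 34 lysosomal genes, 3 were higher (8.82%) and 0 lower, with 29 above 0 and a median of 0.08. Gpnmb was the one at the adjusted threshold. Ctsk, the cathepsin that cleaves collagen, read 8.96, 9.10 and 9.21 with AlivecGap, against 8.73, 8.57 and 8.75 with NCGap (1.33-fold higher, adjusted p = 0.0914). Stress lists held few calls, to be read against the same shares of all tested probe sets. Of 24 p53 target genes only Gadd45a was called (0.35, 4.17% higher), and of 20 heat shock genes only Hsf2 (0.36, 5% higher). Of 37 genes of the unfolded protein and integrated stress response Atf5, Chac1 and Cebpb were lower (-0.28 to -0.33, 8.11%) and 0 were higher. In that list 24 members had a difference under 0, with a median of -0.04. None of 15 reference genes was called in either direction, and their differences lay between -0.12 and 0.14.

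Contractile genes leaned lower without many calls. Of 28 tested members 2 were lower (7.14%) and 0 higher, against 2.69% and 2.24% of all tested probe sets. A difference under 0 was seen in 24, against 49% of all, with a median of -0.08. On the AngII arrays alone 0 were lower and 0 higher, against 3.27% and 2.91% of all, with a median of -0.05. Actg2, the smooth muscle gamma actin, read 11.58, 11.71 and 11.60 with AlivecGap, against 11.99, 11.91 and 11.85 with NCGap (1.22-fold lower, adjusted p = 0.116). Mylk, the myosin light chain kinase, read 7.76, 7.52 and 7.42 with AlivecGap, against 7.89, 7.90 and 7.85 with NCGap (1.24-fold lower, adjusted p = 0.24). These groups did not overlap. Acta2, the smooth muscle alpha actin, did overlap, at 12.49, 12.52 and 12.40 with AlivecGap, against 12.47, 12.50 and 12.47 with NCGap (-0.01 ± 0.06). The summed linear signal of the 8 smooth muscle markers was 32559 to 34608 with AlivecGap and 35249 to 35963 with NCGap, without overlap. That of the 13 adventitial fibroblast markers on the array was higher, 5455 to 5729.9 with AlivecGap and 5068 to 5249 with NCGap. The 10 tested ones did not move together: 5 had a difference above 0 and 5 under 0, with a median of 0.05. Dcn (0.50) and Mfap5 (0.33) were higher and Col14a1 (-0.27) was lower. The part of these marker differences in the gene groups was not tested, and in a culture measured in bulk fewer cells of a type and less RNA per cell cannot be told apart.

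Genes of membrane signaling were called in both directions, and their shares are to be read against 2.69% lower and 2.24% higher of all tested probe sets. In the list of cGMP and cAMP signaling, Prkg1, the kinase through which nitric oxide relaxes the vessel, read 7.61, 7.49 and 7.49 with AlivecGap, against 8.05, 7.87 and 8.02 with NCGap (1.37-fold lower, adjusted p = 0.0992). Its substrate Irag1 (-0.30) and the phosphodiesterase Pde3b (-0.38) were also lower, while the phosphodiesterase Pde4b (0.54) and the natriuretic peptide receptor Npr1 (0.38) were higher, so 3 of 23 members were lower (13%) and 2 higher (8.7%). Of 22 calcium genes 2 were lower (9.09%) and 0 higher: Cacnb2, and Cacna1c, the pore of the same channel (-0.37, adjusted p = 0.108). Of 19 vasoactive receptors 4 were higher (21.1%) and 0 lower: Htr1b, the ADP receptor P2ry1 (0.47), the prostaglandin receptor Ptger4 (0.37) and the sphingosine phosphate receptor S1pr1 (0.45). Agtr1a, the AngII receptor, overlapped between the groups at 10.98, 10.97 and 10.89 with AlivecGap, against 11.05, 10.95 and 11.16 with NCGap (-0.10 ± 0.09). Among 45 early AngII response genes, 4 were higher (8.89%) and 1 was lower (2.22%, near the share over all) with a median of -0.01. The lower one was Rgs4, which switches off G protein signals, at 6.80, 6.74 and 6.43 with AlivecGap, against 7.17, 7.39 and 7.45 with NCGap (1.61-fold lower, adjusted p = 0.158).

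Genes of neurites and adhesion were mostly on the lower side, with shares to be read against 2.69% lower and 2.24% higher of all tested probe sets. Of 23 axon guidance genes 6 were lower (26.1%) and 1 higher: the lower ones were Sema3a, Epha4, Robo2, Sema7a, Slit3 and Unc5c (-0.29 to -0.46), and Sema4d was higher (0.31). Of 14 glutamate receptor and synaptic genes Grik2, Map2, Gphn and Lrrtm3 were lower (28.6%) and Nlgn2 was higher. Of 16 integrins, cadherins and protocadherins Cdh11, Itga1 and Itga4 were lower (18.8%) and 0 were higher. Itga1, a collagen receptor subunit, read 11.41, 11.52 and 11.33 with AlivecGap, against 11.74, 11.81 and 11.79 with NCGap, without overlap (1.28-fold lower, adjusted p = 0.0836). Many of these genes are long, and 18 of the 23 axon guidance genes span at least 100 kb.

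The span of a gene was related to its direction. Genes that span at least 300 kb in GRCr8 numbered 204, of which 20.6% were lower and 0.98% higher at the study thresholds, and 74.0% had a difference under 0 with a median of -0.14. Among the 919 genes of 100 to 300 kb, 5.77% were lower and 1.41% higher, with a median of -0.03. The 3 classes of shorter genes had 1.63% to 1.94% lower and 2.2% to 2.52% higher. Counted the other way, 37.0% of the 257 lower named genes span at least 100 kb, against 6.44% of the 233 higher ones and 11.0% of all 10184. Of the 22 named lower genes at the adjusted threshold, 16 were that long, among them Plxdc2, Grik2, Map2, Camta1, Zfpm2, Smad3 and Cdh11, and 4 of the 22 higher ones were, Ano1, Ppp1r14c, Vsnl1 and Asb12. The median signal of the longest class was 7.73 with NCGap and PBS, against 7.90 to 8.36 in the others. The mean log2 signal over its 204 genes was 7.78, 7.81 and 7.77 with AlivecGap, against 7.91, 7.90 and 7.95 with NCGap, without overlap, and its median difference stayed between -0.15 and -0.12 with any 1 PBS array left out. On the AngII arrays the median of this class was -0.16.

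**Figure D4:**
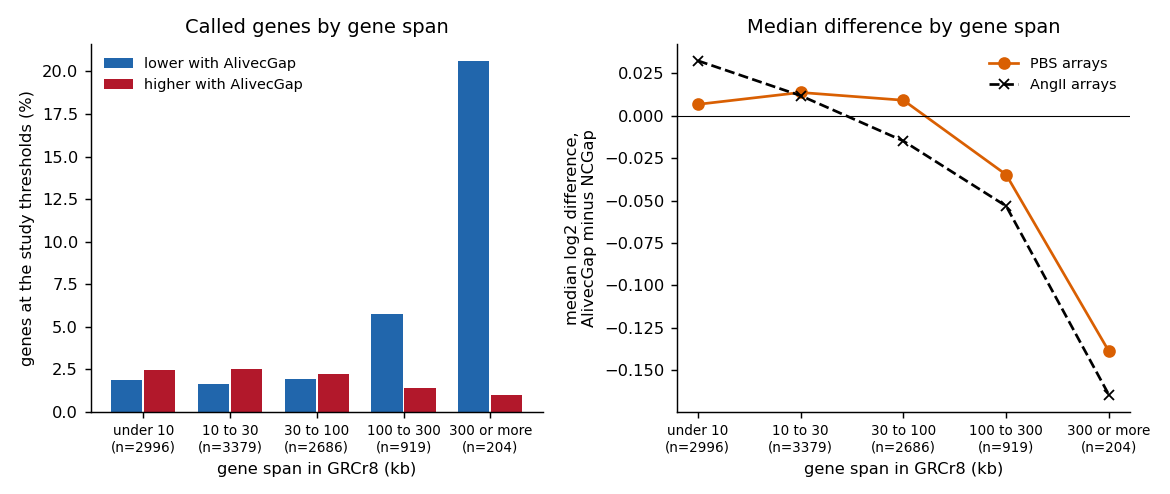
The left panel gives the percent of genes in each class of gene span (kb in GRCr8, horizontal axis) that were lower (blue) or higher (red) at the study thresholds on the PBS arrays. The right panel gives the median log2 difference, AlivecGap minus NCGap, of each class on the PBS arrays (circles) and the AngII arrays (crosses); both are lowest for spans of 300 kb or more, at -0.14 and -0.16.

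The chondrogenic genes that the study followed differed little at rest, apart from Spp1. Acan read 7.54, 7.62 and 7.78 with AlivecGap, against 7.74, 7.46 and 7.81 with NCGap, and the groups overlapped (-0.03 ± 0.09, unadjusted p = 0.782). Tnfaip6, a hyaluronan-binding protein of inflamed tissue, read 7.64, 7.91 and 7.60 with AlivecGap, against 7.60, 7.76 and 8.11 with NCGap (-0.11 ± 0.13). Runx1, a transcription factor of blood and early cartilage, read 7.05, 6.92 and 7.19 with AlivecGap, against 7.37, 7.26 and 7.15 with NCGap (-0.21 ± 0.13). The groups of both genes overlapped. Olr1, the receptor for oxidised LDL, had a mean under 6 in both groups, so no fold is given, and Runx2, the osteoblast factor, differed by 0.02 ± 0.13. On the AngII arrays alone the differences were -0.27 for Acan, -0.60 for Tnfaip6, -0.59 for Runx1, -0.68 for Olr1 and -0.38 for Spp1, all 5 lower at the study thresholds there. The interaction of GapmeR and AngII had an unadjusted p of 0.018 for Tnfaip6 and 0.024 for Olr1, and of 0.088, 0.07 and 0.25 for Acan, Runx1 and Spp1. None passed adjustment. Of 14 tested neighbours of Acan in gene order none had an unadjusted p under 0.05 in limma, against 9.64% of all, and their differences were -0.16 to 0.19. The nearest tested ones were Isg20 (0.01) on one side and Hapln3 on the other, which lay under 6 on average. Tpm3, a tropomyosin, and Hnrnpa2b1, an RNA-binding protein, encode partners of Alivec named in the study. They differed by 0.01 ± 0.07 and 0.08 ± 0.07, and 0 of 11 tested genes of their families were called. Differences in these families were small, from -0.11 to 0.18. Yet 5 of the 11 were without overlap in the higher direction, against 6.91% of all tested probe sets, and 0 in the lower. Of 18 tested genes of vascular calcification 3 were lower (16.7%, against 2.69% of all) and 0 higher, with a median of -0.07 and 7 members above 0. Beside Spp1, the lower ones were Tnfrsf11b and Enpp1. Tnfrsf11b, the osteoclast inhibitor osteoprotegerin, read 10.85, 10.71 and 10.50 with AlivecGap, against 11.19, 11.24 and 10.97 with NCGap (1.36-fold lower, adjusted p = 0.0836), and Enpp1, which makes pyrophosphate, was 1.23-fold lower (adjusted p = 0.169).

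The same contrast on the 6 arrays with AngII was read for the probe sets called with PBS. None of these 6 arrays enters the PBS difference, but they helped to set the spread and the signal filter behind the calls. The shares called again below are therefore not from arrays wholly apart from the selection. Of the 30 probe sets lower at the adjusted threshold with PBS, all 30 had a negative difference with AngII, against 48.9% of all, and 22 (73.3%) were lower at the study thresholds, against 3.27% of all tested probe sets. Of the 29 higher ones, 26 had a positive difference, against 51.1% of all, and 20 (69.0%) were higher at the study thresholds, against 2.91% of all. At an adjusted p under 0.05 in limma, 7 of the 30 (against 0.0946% of all lower) and 5 of the 29 (against 0.0811% of all higher) passed on the AngII arrays. For the wider sets, 130 of 398 lower probe sets (32.7%) and 110 of 331 higher ones (33.2%) were called again in the same direction. The differences were smaller with AngII in 19 of the 30 lower and 25 of the 29 higher probe sets, with medians of -0.50 with PBS and -0.39 with AngII for the lower, and 0.55 with PBS and 0.36 with AngII for the higher. These probe sets were selected on the PBS arrays for a large difference there. The interaction had an unadjusted p under 0.05 in 7 of the 30 and 14 of the 29. Plxdc2 differed by -0.77 with AngII, Grik2 by -0.77, Cp by 0.88, C3 by 0.64 and Gpnmb by 0.80. Gda differed by 0.80, with both PBS means under 6.

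**Figure D5:**
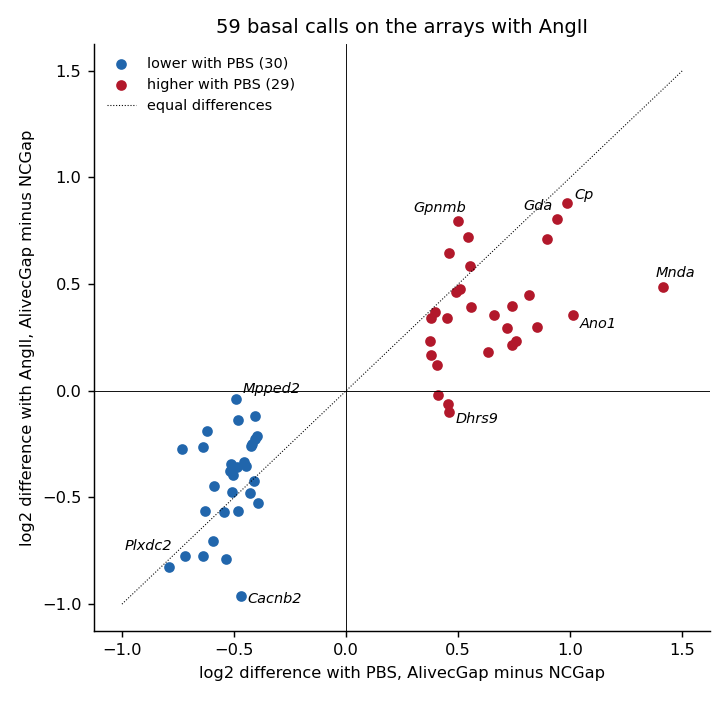
Each point is 1 of the 59 probe sets at an adjusted p under 0.05 with PBS, with its log2 difference (AlivecGap minus NCGap) on the PBS arrays on the horizontal axis and on the AngII arrays on the vertical axis; the dotted line marks equal differences. All 30 lower probe sets (blue) stay under 0 with AngII and 26 of the 29 higher ones (red) stay above 0; Cacnb2 lies well below the line at -0.96 with AngII, and Mnda and Ano1 lie well below it at 0.48 and 0.36.

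A formal test of the change between PBS and AngII, the interaction in limma, passed for 0 probe sets at an adjusted p under 0.05, with 814 (5.5%) at an unadjusted p under 0.05. Among the genes called with PBS, the smallest interaction p were those of Dhrs9 (0.46 with PBS and -0.10 with AngII, unadjusted p = 0.00044), Pde6b, a retinal phosphodiesterase (-0.46 and 0.30), Ahctf1, a nucleoporin (0.27 and -0.13), Sat1, which acetylates spermidine (0.31 and -0.15), and Il7, a cytokine of lymphocytes (0.47 and -0.17), in the same order of conditions. Il7 read 8.51, 8.38 and 8.44 with AlivecGap and PBS, against 7.78, 8.19 and 7.95 with NCGap and PBS, without overlap. Cacnb2 had the opposite course, -0.47 with PBS and -0.96 with AngII (unadjusted p = 0.0011). Mnda, Ano1, Ccl20 and Vcam1 differed less with AngII, at 0.48, 0.36, 0.30 and 0.12, with unadjusted interaction p of 0.0066, 0.0032, 0.0063 and 0.0084 in that order.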

How the data were processed

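The deposited values were log2 signals of 23188 probe sets on 12 arrays. According to the methods, the authors imported the raw CEL files into Partek Genomics Suite and normalized them there by RMA, a robust multi-array average. Neither the background options nor the build behind the probe sets is stated (not given in the sources used here). The values were taken as deposited, which leaves each array on the scale that the normalization gave it, and precision is limited by how many arrays there are. Probe sets were named through their gene identifiers in the RefSeq table of GRCr8 (15049 with 1 symbol, 8139 with none). Probe sets that reached a log2 signal of 6 on 3 or more arrays were tested with the lmFit and eBayes functions of limma 3.58.1 (R 4.3.3; 4 group means over 12 arrays), after the function was checked on simulated data. The methods name an analysis of variance without its terms. Calls used a Benjamini-Hochberg adjusted p under 0.05, or the thresholds of the methods, a fold change of at least 1.2 with an unadjusted p under 0.05. AngII arrays were also fitted alone. Where 1 group mean was under 6, 6 took its place and the fold is a bound; where both were, none is given.

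Genes were named by rule. The rule took the 12 largest changes in each direction at the adjusted threshold, the rest of that set and genes the study names. It also took up to 4 members of each of 37 gene lists by smallest p, the 5 smallest interaction p and the neighbours of Acan. Further called members of the lists described, though not every one, were added after their values were seen. Where a gene had several probe sets, lists used the brightest. The members and lists were chosen with earlier results of these data known. Lists are described by counts and medians. Alternatives changed the samples, moderation, filter, normalization, weights, replicate block and genes, and left out each array. Python 3.11.15 with pandas 2.3.3 was used for counts and promoters.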

Additional observations from a re-analysis of the deposited data

How the results depend on the processing

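The 59 probe sets kept their direction and the study thresholds under every alternative in which they were tested. Only the alternatives that rescaled the arrays could have changed a direction, since the groups of these probe sets did not overlap. How many probe sets passed an adjusted p under 0.05 moved. Lower and higher calls at that threshold were 101 and 94 with array weights, 106 and 98 with a prior that follows the signal, 8 and 4 without moderation, 4 and 6 without a filter on low signal, 0 and 1 with only the 6 PBS arrays, and 4 and 12 without unnamed probe sets and genes spanning 100 kb or more. Lower calls alone moved to 18 with each array centred on its median, 50 with a filter at log2 7 and 48 with a further quantile normalization. At the study thresholds, lower and higher calls were 619 and 526 with array weights, 654 and 509 without a filter, and 162 and 220 without the long and unnamed ones, and lower calls were 260 with the filter at 7 and 258 with 1 probe set per named gene. Apart from fewer genes or samples tested, the cause was not tested. With 1 PBS array left out, adjusted calls ranged from 2 to 45 lower and 1 to 61 higher, calls at the study thresholds from 374 to 647 lower and 297 to 684 higher (both highest without NCGap array 3), and the interaction passed for 0 at the adjusted and 606 to 1455 at the unadjusted threshold. With 1 AngII array left out, 29 to 30 lower and 26 to 28 higher basal calls kept their sign, and 21 to 24 and 19 to 21 were called.

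Alternatives for the lists were chosen after seeing the data. Higher interferon genes numbered 9 without moderation and 6 to 20 with 1 PBS array left out (6 without AlivecGap array 3), complement genes 8 to 9, lower genes of at least 100 kb 80 to 122 and contractile genes under 0 19 to 25. The replicate numbers did not pair the PBS arrays: deviations of same-numbered arrays correlated at 0.03, -0.09 and 0.08. Replicate 3 arrays did correlate elsewhere, at 0.32 and 0.31 between the NCGap PBS array and the NCGap and AlivecGap AngII arrays and at 0.31 between these AngII arrays. With the replicate number as a block, 33 lower and 43 higher passed the adjusted and 426 and 369 the study thresholds, and 52 of the 59 remained at the adjusted one, while the interaction passed for 0 at the adjusted and 972 at the unadjusted threshold. Of 173 named genes, 13 changed the sign of their difference in 30 of 3031 combinations of gene and alternative, among them Acan, Tnfaip6, Olr1, Runx2, Tpm3, Acta2 and Tagln. All 13 differed by 0.11 or less in size, and in none of the 30 was the unadjusted p under 0.05 before or after. Of the 3031, 2608 kept their side of the adjusted threshold, 343 lost it and 80 gained it. With 3 arrays a group, and signals near 6 noisier than bright ones, small differences of dim genes were not detectable.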
